A study of Mus musculus with 16 samples.

Results

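The genes described here are the tenascins and the chondroitin sulfate proteoglycans of the brain matrix, with the link protein and the receptor that belong to them. They are the rows of the deposited log2 CPM table whose symbol is Tnc, Tnr, Bcan, Ncan, Vcan, Acan, Cspg5, Hapln1 or Ptprz1. All 9 were found among the 16707 genes of that table, and all 9 passed the count filter that left 16066 genes for testing. RNA was sequenced from primary astrocytes of 4 wild-type (WT) C57BL6J litters and 4 litters lacking the mitochondrial NOD-like receptor family member Nlrx1 (Nlrx1-/-, called KO below). Brain cells of pups at postnatal day 6, by the labels and the methods, were selected with beads against the astrocyte surface antigen ACSA-2 and grown without serum in the presence of the growth factor HB-EGF. From each litter, 1 well received water as vehicle and another received lipopolysaccharide (LPS, 500 ng/mL) with interferon gamma (IFNγ, 10 ng/mL) for 24 h. The 4 groups of 4 libraries are therefore WT vehicle, WT LPS + IFNγ, KO vehicle and KO LPS + IFNγ. By the methods the WT mice were bought and the KO line came from another laboratory, so that genotype and colony cannot be told apart.

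The lecticans aggrecan (Acan), brevican (Bcan), neurocan (Ncan) and versican (Vcan) are secreted core proteins that carry chondroitin sulfate chains and bind hyaluronan at one end and tenascins at the other. Link proteins such as Hapln1 fix the hyaluronan bond, tenascin-R (Tnr) crosslinks lecticans in mature matrix and perineuronal nets, and tenascin-C (Tnc) is a matrix glycoprotein of developing and injured tissue. Ptprz1 is a receptor phosphatase that itself carries chondroitin sulfate and also gives a secreted form, phosphacan, while Cspg5 (neuroglycan C) is a transmembrane proteoglycan. Reactive astrocytes and oligodendrocyte precursors are both known sources of these proteins, which as a class restrain axon growth and myelin repair.

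The windows around the transcription start of some genes called in the same direction in both genotypes are shown first. Their part in the RNA change was not tested. RefSeq windows of 300 bases (250 before and 50 after a start, GRCm38.p6) were at hand for 8 of the 9 genes, all but Cspg5. Tnc and Ptprz1 rose in both genotypes, and Tnr and Bcan fell in both. Hapln1, whose window is not shown, fell in both as well. For Tnc, which has 2 listed starts, the window of the downstream start is shown. Capitals mark the letters of a TATA box, TATAAA, on either strand, and likewise those of a GC box, spelled GGGCGG.
Tnc, chr4:64046887-64047186, minus strand: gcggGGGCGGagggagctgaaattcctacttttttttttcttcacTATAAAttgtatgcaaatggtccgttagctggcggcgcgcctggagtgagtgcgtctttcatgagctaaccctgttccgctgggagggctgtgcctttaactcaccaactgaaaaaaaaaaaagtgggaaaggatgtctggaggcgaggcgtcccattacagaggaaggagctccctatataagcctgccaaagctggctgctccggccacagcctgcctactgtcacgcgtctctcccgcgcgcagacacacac
Ptprz1, chr6:22875252-22875551, plus strand: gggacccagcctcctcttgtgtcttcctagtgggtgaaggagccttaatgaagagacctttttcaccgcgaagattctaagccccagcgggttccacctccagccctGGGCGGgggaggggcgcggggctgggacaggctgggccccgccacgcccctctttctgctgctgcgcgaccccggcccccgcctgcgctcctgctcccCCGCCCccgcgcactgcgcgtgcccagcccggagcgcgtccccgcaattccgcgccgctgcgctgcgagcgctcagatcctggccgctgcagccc
Tnr, chr1:159523519-159523818, plus strand: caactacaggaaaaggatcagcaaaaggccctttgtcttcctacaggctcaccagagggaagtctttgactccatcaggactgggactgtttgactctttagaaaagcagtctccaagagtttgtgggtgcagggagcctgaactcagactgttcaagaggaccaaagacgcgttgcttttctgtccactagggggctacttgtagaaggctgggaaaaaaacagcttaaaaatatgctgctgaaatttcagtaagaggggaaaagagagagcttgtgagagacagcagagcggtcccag
Bcan, chr3:88000307-88000606, minus strand: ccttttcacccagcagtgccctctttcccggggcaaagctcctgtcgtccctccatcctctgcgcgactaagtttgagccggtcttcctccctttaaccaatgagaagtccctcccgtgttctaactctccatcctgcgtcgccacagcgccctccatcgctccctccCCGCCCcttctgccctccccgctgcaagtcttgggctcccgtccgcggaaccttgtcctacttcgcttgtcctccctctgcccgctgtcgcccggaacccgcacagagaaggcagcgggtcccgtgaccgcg
The Tnc window held TATAAA 205 to 200 bases before the start, letters that 13.6% of all 32851 windows of this length contain. The window also held GGGCGG, which 35.7% contain, 246 to 241 bases before the start. Only these exact letters were searched, so the related stretch tatataag, nearer to the Tnc start, stays in lower case. GGGCGG or its reverse complement also lay in the Ptprz1 window, on each strand, and in the Bcan, Ncan, Vcan and Acan windows. The Tnr and Hapln1 windows held neither. The interferon-stimulated response element (ISRE), the STAT site TTCNNNGAA and the AP-1 site TGANTCA, present in 3.44%, 8.30% and 7.81% of all windows, were found in 0 of the members' windows. A κB site was found in the Acan window alone, against 8.46% of all windows. The CpG dinucleotides of the shown windows numbered 29 for Ptprz1, 24 for Bcan, 16 for Tnc and 3 for Tnr, against a median of 7 over all windows.

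Salmon assigned between 27259420 and 43752903 read pairs to transcripts in each library. Nlrx1 itself stood at 4.22 ± 0.15 log2 CPM in WT vehicle and 2.47 ± 0.53 in KO vehicle (SD, n = 4 litters), and at 4.12 ± 0.05 and 1.90 ± 0.54 with LPS + IFNγ. All 10 astrocyte markers were present, with a summed level between 5386 and 10848 CPM per library. Of 10 microglial and myeloid markers, P2ry12 and Cd68 were in the table, at a sum of 3.62 CPM at most, and the other 8 were below its filter. The 7 markers of oligodendrocyte precursors summed to 2165 to 3839 CPM and the 7 of oligodendrocytes to 198 to 984 CPM, with Olig1 (1457 to 2813 CPM) and Olig2 (338 to 800 CPM) making up most of the first sum and Pdgfra, Sox10 and Gpr17 lying between 22.2 and 206 CPM. Neuron markers summed to 842 to 1185 CPM, of which Map2 gave 781 to 1107. Rbfox3, Snap25, Syt1 and Stmn2 were at 7.59 CPM at most, and Dcx at 7.70 to 21.8. Tubb3 was at 4.56 to 11.5 CPM in vehicle wells and at 51.2 to 79.4 with LPS + IFNγ. Fibroblast and pericyte markers summed to 14.9 to 62.2 CPM and ependymal markers to 71.6 to 237. The 1 endothelial marker of 5 in the table was at 5.82 CPM at most. KO litters 2 and 4 stood apart from the others before treatment. The myelin gene Mbp was at 2.49 and 3.0 log2 CPM in their vehicle wells, against 5.93 and 7.22 in KO litters 1 and 3 and 6.47 to 7.84 in WT, and the astrocyte filament gene Gfap was at 7.37 and 8.35, against 9.51 and 10.45 and 9.70 to 11.34. Both these wells lay below all other vehicle wells for 6 of 10 astrocyte markers (Gfap, Aqp4, Slc1a2, Gja1, S100b and Atp1b2), 5 of 7 oligodendrocyte markers and 3 of 7 precursor markers (Pdgfra, Sox10 and Gpr17), but not for the astrocyte genes Aldh1l1 (9.67 and 9.76) and Slc1a3 (11.24 and 11.05), and they were the highest for Olig1 (11.46 and 11.33). In bulk RNA, fewer cells of a type and less RNA per cell cannot be told apart, and the part of these differences in the results below was not tested, beyond the values given without the 2 litters.

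Levels were compared between genes as TPM, Salmon's transcript abundance scaled by length and library total. Unlike the deposited log2 CPM, TPM is not TMM-adjusted, so it is less suited to comparing conditions. In WT vehicle wells Ptprz1 was highest at 936 ± 58.1 TPM (SD, n = 4), followed by Bcan at 507 ± 34.3, Ncan at 288 ± 34.6, Cspg5 at 179 ± 24.4 and Tnr at 41.7 ± 6.12. Tnc at 15.9 ± 6.02 and Vcan at 15.4 ± 1.04 TPM overlapped in range, Hapln1 was at 1.81 ± 0.685, and Acan, the lectican of cartilage and perineuronal nets, was near the floor at 0.0504 ± 0.0173 with 3 to 10 reads. All other neighbours in this order had ranges that did not overlap. After LPS + IFNγ the order in WT became Ptprz1 at 1207 ± 76.6, Cspg5 at 340 ± 26.2, Bcan at 324 ± 33.5, Ncan at 274 ± 25.4, Tnc at 41.3 ± 21.1, Tnr at 18.5 ± 3.84, Vcan at 12.8 ± 1.40, Hapln1 at 0.602 ± 0.237 and Acan at 0.0640 ± 0.0356 TPM. The ranges of Cspg5, Bcan and Ncan overlapped with their neighbours in turn, and so did those of Tnc and Tnr. In KO wells with LPS + IFNγ, Tnc reached 229 ± 145 TPM, with a range of 80.9 to 383. That range held those of Bcan (277 to 336), Cspg5 (291 to 320) and Ncan (199 to 289). Tnr was at 9.42 ± 7.37 TPM in these wells.

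**Figure D1:**
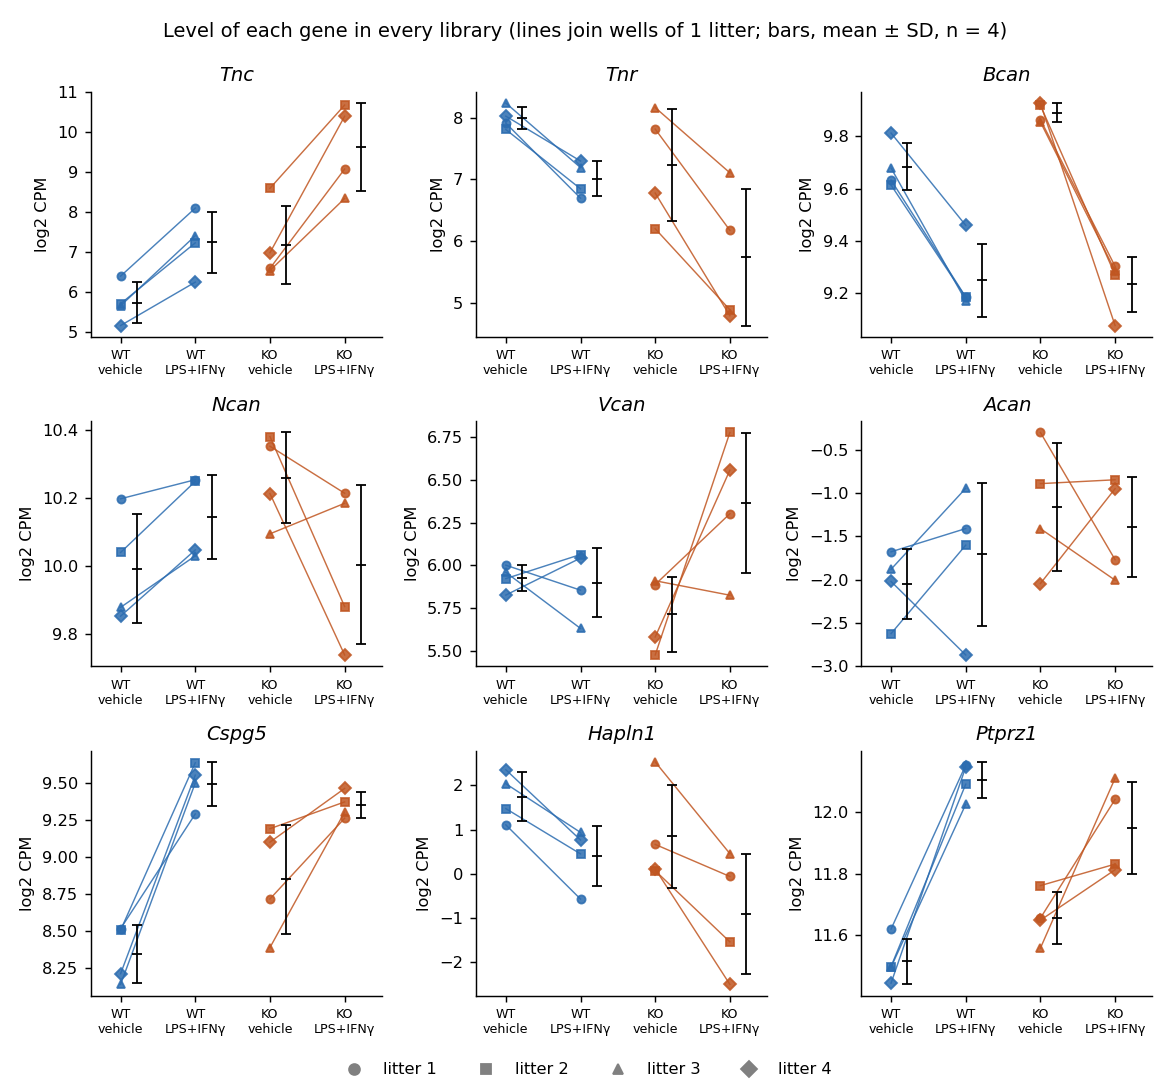
Deposited log2 CPM (vertical axes, which differ between panels) of each of the 9 genes in every library, by group. Each symbol is 1 library, lines join the 2 wells of a litter, and bars give the mean ± SD of 4 litters. Tnc rose and Tnr, Bcan and Hapln1 fell along every line, while Vcan lines went both ways in WT.

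Which of these genes respond to LPS + IFNγ was asked within litters, in WT and in KO. In WT, 3 of the 9 rose (Tnc, Cspg5, Ptprz1) and 3 fell (Tnr, Bcan, Hapln1) at an adjusted p below 0.05 (edgeR quasi-likelihood test with litter as block). Of all genes tested, 23.7% rose and 20.2% fell. In KO, 4 rose (the same 3 and Vcan) and 4 fell (the same 3 and Ncan), against 25.3% and 24.2% of all genes. The median log2 fold change of the members was 0.14 in WT and -0.27 in KO, and that of all genes was -0.02 and -0.03. Genes called in both genotypes are described first, by role.

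Among the tenascins, the 2 genes moved in opposite directions. Tnc was at 6.39, 5.70, 5.65 and 5.15 log2 CPM in the vehicle wells of WT litters 1 to 4 and at 8.10, 7.23, 7.40 and 6.24 in their LPS + IFNγ wells. In KO litters 1 to 4 it was at 6.59, 8.59, 6.53 and 6.98 in vehicle and at 9.08, 10.68, 8.34 and 10.40 with LPS + IFNγ. The level rose within all 8 litters, although the ranges of the 2 conditions overlapped in each genotype. The increase was 2.85-fold in WT (log2 fold change 1.51 ± 0.21 SE, edgeR adjusted p = 2.14e-04) and 5.40-fold in KO (2.43 ± 0.22, adjusted p = 7.66e-06).

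Tnr was at 7.91, 7.81, 8.23 and 8.02 log2 CPM in WT vehicle wells and at 6.70, 6.85, 7.19 and 7.30 with LPS + IFNγ. In KO it was at 7.81, 6.20, 8.16 and 6.78 in vehicle and at 6.18, 4.89, 7.11 and 4.79 with LPS + IFNγ. All 8 litters fell, the WT ranges did not overlap, and KO litters 2 and 4, the litters low in Mbp and Gfap, were the lowest of the KO litters in both conditions. The decrease was -0.98 ± 0.14 in WT (edgeR adjusted p = 2.11e-04) and -1.54 ± 0.14 in KO (adjusted p = 9.25e-06). Some Tnr transcripts could not be paired with the symbol, and limma on the deposited table, which holds them, gave -0.99 and -1.50 (adjusted p = 3.80e-05 and 1.00e-06).

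Most markers of oligodendrocyte precursors moved the same way as Tnr. Of the 7, 5 fell in WT and 6 in KO, and 0 rose in either. Of all genes, 20.2% fell in WT and 24.2% in KO. Pdgfra, the growth factor receptor of these cells, was at -1.34 ± 0.13 and -1.58 ± 0.13 (edgeR adjusted p = 1.28e-05 and 3.86e-06). Pdgfra, Cspg4, Sox10, Gpr17 and Lhfpl3 fell within all 8 litters. The more abundant Olig1 and Olig2 did not: Olig1 rose in WT litter 2, and Olig2 in WT litters 1 and 2 and KO litters 1 and 3. Of the 7 oligodendrocyte markers, 4 fell in WT and 5 in KO, and of the 10 astrocyte markers 3 rose and 4 fell in WT and 2 rose and 5 fell in KO. The summed level of the precursor markers ranged from 2608 to 3419 CPM in WT vehicle, 2165 to 3031 in WT LPS + IFNγ, 2744 to 3839 in KO vehicle and 2195 to 2894 in KO LPS + IFNγ, and is mostly Olig1 and Olig2. The part of this lineage in the decrease of Tnr was not tested.

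**Figure D2:**
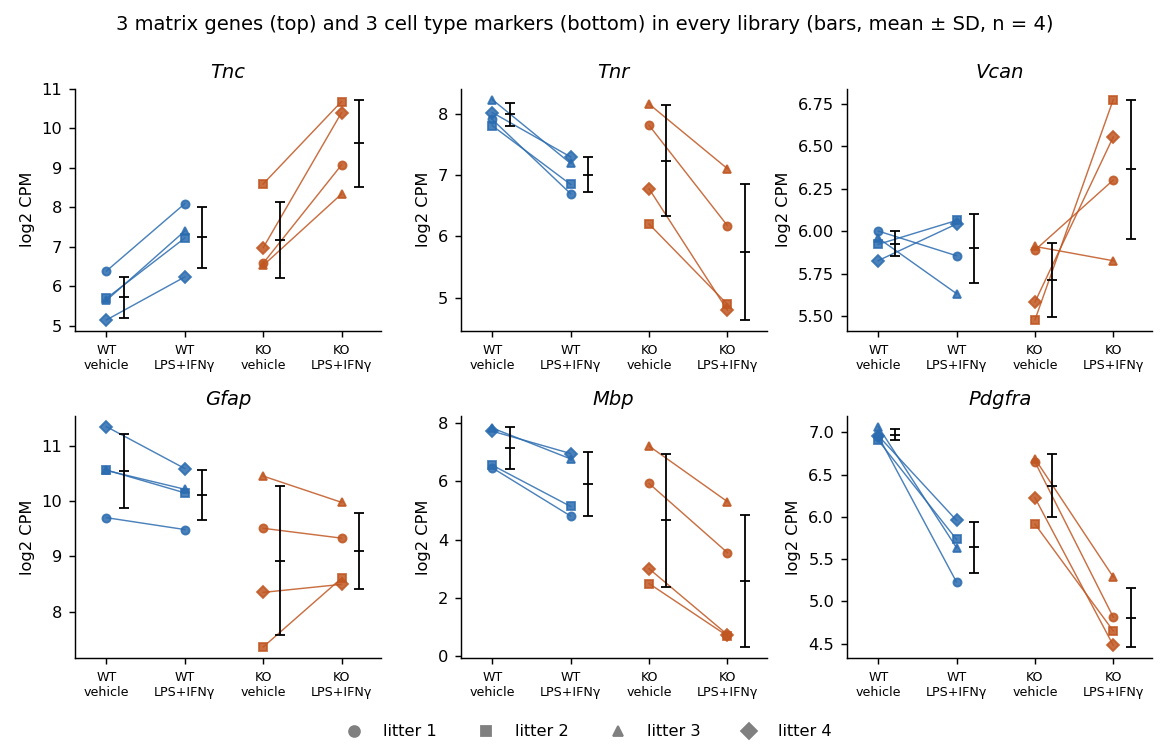
Deposited log2 CPM (vertical axes, which differ between panels) of Tnc, Tnr and Vcan above and of the astrocyte marker Gfap, the myelin gene Mbp and the precursor marker Pdgfra below, in every library. Symbols mark litters, lines join the wells of a litter and bars give the mean ± SD of 4 litters. KO litters 2 and 4 (square and diamond) are the lowest KO litters for Mbp and Gfap in both conditions and the highest for Tnc.

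Of the lecticans, Bcan had the most even response. It was at 9.63, 9.61, 9.68 and 9.81 log2 CPM in WT vehicle and at 9.19, 9.18, 9.17 and 9.46 with LPS + IFNγ. In KO it went from 9.86, 9.92, 9.85 and 9.93 to 9.30, 9.27, 9.29 and 9.08. The conditions did not overlap in either genotype, with decreases of -0.44 ± 0.05 in WT and -0.66 ± 0.05 in KO (edgeR adjusted p = 6.03e-05 and 2.94e-06). Limma on the deposited table gave -0.43 and -0.66 (adjusted p = 4.12e-05 and 1.13e-06).

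Ncan stayed near 10 log2 CPM. Its litter responses in WT were 0.06, 0.21, 0.15 and 0.19, which did not pass the test (log2 fold change 0.14 ± 0.09, edgeR adjusted p = 0.223). In KO they were -0.14, -0.50, 0.09 and -0.48, and the fit called a decrease of -0.27 ± 0.09 (adjusted p = 0.0274). The call rested on KO litters 2 and 4, since the value was -0.19 without litter 2 (adjusted p = 0.127), -0.19 without litter 4 (adjusted p = 0.130) and -0.03 without both (adjusted p = 0.767). In the fit without both KO litters the WT increase was called (0.15 ± 0.05, edgeR adjusted p = 0.0309).

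Vcan, a lectican of immature and inflamed matrix, had WT litter responses of -0.15, 0.14, -0.33 and 0.22, and did not pass the test (-0.06 ± 0.18, edgeR adjusted p = 0.823; limma on the deposited table -0.03, adjusted p = 0.906). In KO the litter responses were 0.41, 1.30, -0.08 and 0.98, and an increase of 0.61 ± 0.18 was called (edgeR adjusted p = 0.0183; limma 0.65, adjusted p = 0.00766). Here too KO litters 2 and 4 had the largest responses. The increase was no longer called without litter 2 (0.40, adjusted p = 0.0899), without litter 4 (0.48, adjusted p = 0.0878) or without both (0.12, adjusted p = 0.553).

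Acan was measured by 3 to 28 reads per library and passed the test in neither genotype (0.44 ± 0.66 in WT and -0.28 ± 0.62 in KO, edgeR adjusted p = 0.624 and 0.737). At this depth a change of Acan was not detectable.

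Hapln1, which fastens lecticans to hyaluronan, was at 1.11, 1.48, 2.04 and 2.36 log2 CPM in WT vehicle and at -0.57, 0.45, 0.94 and 0.77 with LPS + IFNγ. In KO it went from 0.66, 0.07, 2.53 and 0.11 to -0.06, -1.54, 0.46 and -2.51. It fell in all 8 litters, with values that overlapped between conditions in KO and not in WT. The decreases were -1.39 ± 0.31 in WT and -1.84 ± 0.34 in KO (edgeR adjusted p = 0.00452 and 0.00129), at 4 to 214 reads per library.

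The 2 membrane proteoglycans rose. Cspg5 was at 8.52, 8.51, 8.14 and 8.21 log2 CPM in WT vehicle and at 9.29, 9.64, 9.50 and 9.55 with LPS + IFNγ. In KO it went from 8.72, 9.19, 8.39 and 9.10 to 9.26, 9.37, 9.30 and 9.46. The conditions did not overlap in either genotype, and the KO vehicle wells of litters 2 and 4 were the highest vehicle wells. The increase was 2.20-fold in WT (1.14 ± 0.12, edgeR adjusted p = 3.49e-05) and 1.40-fold in KO (0.49 ± 0.12, adjusted p = 0.00699).

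Ptprz1, the most abundant member, was at 11.62, 11.50, 11.50 and 11.45 log2 CPM in WT vehicle and at 12.15, 12.09, 12.02 and 12.14 with LPS + IFNγ. In KO it went from 11.66, 11.76, 11.56 and 11.65 to 12.04, 11.83, 12.11 and 11.81. All wells with LPS + IFNγ lay above the vehicle wells of their genotype. The increase was 0.58 ± 0.07 in WT and 0.28 ± 0.07 in KO (edgeR adjusted p = 1.23e-04 and 0.00989), with the KO litters 2 and 4 moving by 0.07 and 0.16 and litters 1 and 3 by 0.38 and 0.55.

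**Figure D3:**
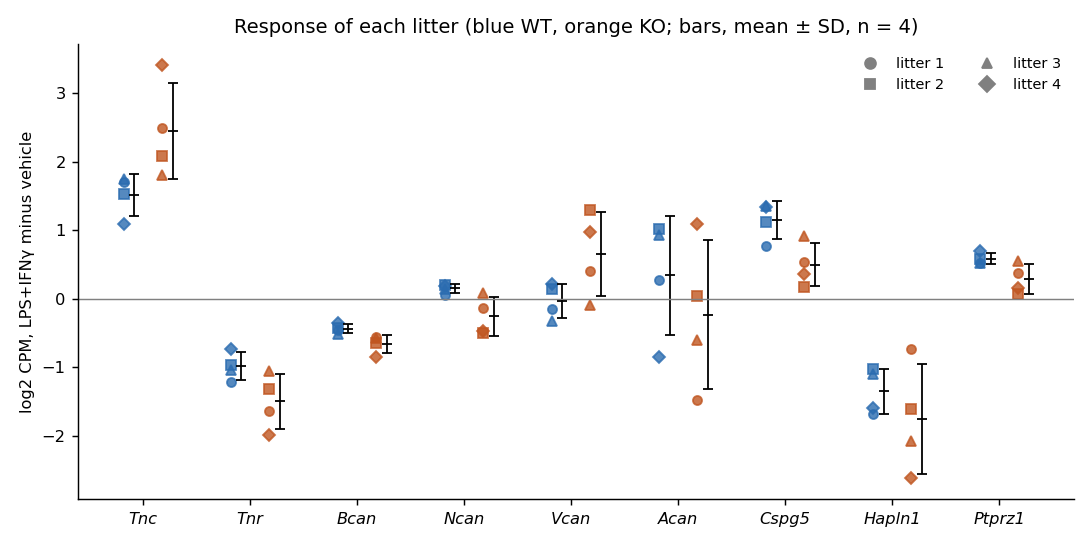
Difference in log2 CPM between the LPS + IFNγ and the vehicle well of a litter (vertical axis) for the 9 genes, with WT litters in blue and KO litters in orange, 1 symbol per litter, and bars for the mean ± SD of 4 litters. The KO litters spread more widely than the WT litters for each gene, with Tnc between 1.09 and 1.75 in WT and between 1.81 and 3.42 in KO.

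Whether the response differed between genotypes was tested as an interaction. At an adjusted p below 0.05, 0 of the 9 members and 0% of all genes were called by edgeR. Unadjusted p lay below 0.05 for 7 of the 9 members, against 15.4% of all genes, and limma on the deposited table called 0 members and DESeq2 called Cspg5. The interaction was 0.92 ± 0.29 for Tnc (edgeR adjusted p = 0.225), with every KO litter above every WT litter, and -0.66 ± 0.17 for Cspg5 (adjusted p = 0.220; DESeq2 adjusted p = 0.0126). It was -0.56 ± 0.19 for Tnr, -0.22 ± 0.07 for Bcan, -0.41 ± 0.13 for Ncan, 0.67 ± 0.26 for Vcan and -0.30 ± 0.10 for Ptprz1, with edgeR adjusted p between 0.223 and 0.272. Without KO litters 2 and 4 the interaction was 0.62 for Tnc, -0.44 for Tnr, -0.13 for Bcan, -0.18 for Ncan, 0.17 for Vcan, -0.42 for Cspg5 and -0.12 for Ptprz1 (edgeR adjusted p between 0.547 and 0.811). Without KO litter 3 edgeR called 4 members (Ncan, Vcan, Cspg5 and Ptprz1), at adjusted p between 0.0378 and 0.0482.

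KO was also compared with WT within each condition, in a fit of the 4 groups without litter terms. This fit counts the 2 wells of a litter as independent although they are correlated, so its p-values can be too low. In vehicle wells 0 members and 0% of all genes were called by edgeR. Unadjusted p lay below 0.05 for 4 members (Tnc, Bcan, Ncan and Cspg5), against 19.6% of all genes, limma called 0 members, and DESeq2 called Cspg5. All KO vehicle wells were higher than all WT vehicle wells for Tnc (1.65 ± 0.55, edgeR adjusted p = 0.147) and for Bcan (0.18 ± 0.08, adjusted p = 0.210). Cspg5 was higher by 0.52 ± 0.15 (adjusted p = 0.121), with KO litter 3 inside the WT range. Without KO litters 2 and 4 the differences were 0.76 for Tnc, 0.16 for Bcan and 0.20 for Cspg5 (edgeR adjusted p = 0.717, 0.717 and 0.734).

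With LPS + IFNγ, Tnc was called in the same fit of the 4 groups, and 5.03% of all genes were. Its level was 5.71-fold higher in KO (log2 fold change 2.51 ± 0.57, edgeR adjusted p = 0.0396; 4 KO wells at 8.34 or above and 4 WT wells at 8.10 or below). The call was lost without WT litter 2 (adjusted p = 0.128), WT litter 3 (0.139), WT litter 4 (0.150), KO litter 2 (0.0599) or KO litter 4 (0.148). It was also lost in a fit of the 8 LPS + IFNγ libraries alone (0.0746), in which each litter counts once. The log2 difference stayed between 2.12 and 2.86 in these fits. Without both KO litters 2 and 4 the log2 difference was 1.36 (adjusted p = 0.285). In the same comparison 3 of 10 astrocyte markers were lower in KO, Gja1 (-1.33 ± 0.36, edgeR adjusted p = 0.0472), S100b (-2.0 ± 0.51, adjusted p = 0.0439) and Aldoc (-0.62 ± 0.16, adjusted p = 0.0455), and so was the precursor marker Pdgfra (-0.83 ± 0.19, adjusted p = 0.0396). Their part in the difference of Tnc was not tested. The other members gave -0.98 ± 0.45 for Tnr, 0.42 ± 0.16 for Vcan, -1.04 ± 0.67 for Hapln1 and values between -0.16 and 0.29 for the remaining 5, none of them called. Without KO litter 3, edgeR called Tnr, Vcan and Ptprz1 beside Tnc.

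The transcripts of a gene were weighed by their share of its TPM, over the transcripts paired with the symbol. Vcan is spliced at the 2 long exons that carry the chondroitin sulfate attachment regions, of 2880 bases (GAGα) and 5217 bases (GAGβ). The RefSeq transcripts of 12432, 9552, 7215 and 4335 bases differ by these lengths and are V0 with both exons, V1 without the shorter, V2 without the longer and V3 with neither. V2, the adult brain form, held 77.4, 79.8, 82.9 and 72.4% of Vcan TPM in WT vehicle and 58.1, 67.5, 63.8 and 61.2% with LPS + IFNγ. In KO it went from 81.2, 75.5, 83.1 and 80.0% to 63.6, 62.6, 60.5 and 66.7%. The share fell in all 8 litters, by 16.1 ± 4.14 percentage points on average (SD, n = 8; exact two-sided sign-flip test, p = 0.0078, the smallest that 8 litters can give, adjusted p = 0.013 over 5 transcript classes).

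V0 and V1 together, which carry GAGβ, moved the other way. They held 13.8 to 23.7% in WT vehicle and 24.0 to 33.9% with LPS + IFNγ, and 0 to 21.3% in KO vehicle and 19.3 to 35% with LPS + IFNγ. The share rose in all 8 litters (13.3 percentage points on average, exact sign-flip p = 0.0078, adjusted p = 0.013), and the 0 is a KO vehicle library in which Salmon listed none. Another Vcan transcript, of 11434 bases, lies outside this series of lengths and held 0 to 17.6% in vehicle and 0 to 14.9% with LPS + IFNγ, and which of the long exons it holds was not determined. With it added to V0 and V1, the share rose in all 8 litters as well, by 15.8 ± 3.62 percentage points (exact sign-flip p = 0.0078). All these shares are parts of the same Vcan total, so the rises and the fall of V2 are not independent results. The change did not pass a test between genotypes for V2 or for V0 and V1 (exact permutation p = 0.686 and 0.514). In WT the TPM total of Vcan went from 15.4 ± 1.04 to 12.8 ± 1.40. Its TMM-adjusted log2 CPM was at 5.93 ± 0.07 in vehicle and 5.90 ± 0.20 with LPS + IFNγ. The TPM levels given here are not TMM-adjusted, so their changes between conditions can also hold a shift of scale. The V2 level went from 12 ± 1.37 to 8.01 ± 0.99 TPM in WT. The V2 level did not fall in KO as a group, at 9.94 ± 2.19 TPM in vehicle and 10.8 ± 2.65 with LPS + IFNγ. It fell in KO litters 1 and 3 and rose in litters 2 and 4. The level of V0 with V1 went from 2.601 ± 0.495 to 3.65 ± 0.468 TPM in WT and from 1.35 ± 1.13 to 4.52 ± 2.16 in KO. Between 82.8% and 95.2% of the deposited Vcan signal was covered by these transcripts.

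In Ptprz1, the transcripts under 6000 bases held 12.4, 14.2, 17.9 and 15% of TPM in WT vehicle and 21.7, 24.1, 27.7 and 27.9% with LPS + IFNγ. In KO the shares went from 13.2, 15.1, 15.5 and 12.8% to 21.1, 26.4, 23.6 and 24.4%. They rose in all 8 litters, by 10.1 ± 1.75 percentage points (exact sign-flip p = 0.0078, adjusted p = 0.013), and did not overlap between conditions. Their level, without TMM adjustment, went from 139 ± 18.5 to 305 ± 33.4 TPM in WT and from 140 ± 14 to 255 ± 25 TPM in KO. Ptprz1 is known to give long and short receptors beside phosphacan, and which protein each transcript encodes was not determined here.

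Tnc transcripts differ in fibronectin type III repeats. The 7290-base transcript held 67.3 ± 10.9% of Tnc TPM in WT vehicle and 75.2 ± 1.61% with LPS + IFNγ, and 66.0 ± 1.86% and 75.1 ± 1.33% in KO. A 5652-base transcript is shorter by 1638 bases, the length of 6 exons of 273 bases that the gene contains. It held 0 to 22.7% in WT vehicle and 0 to 6.78% with LPS + IFNγ, and 5.94 to 18.5% and 1.67 to 3.6% in KO, with a decrease in 6 of 8 litters, an increase in 1 and a listing at 0 in both wells of WT litter 4 (exact sign-flip p = 0.0312, adjusted p = 0.039). The 2685-base Bcan transcript went from 16.9 ± 1.72% to 18.4 ± 1.63% over the 8 litters, which did not pass the test (exact sign-flip p = 0.0781, adjusted p = 0.078).

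**Figure D4:**
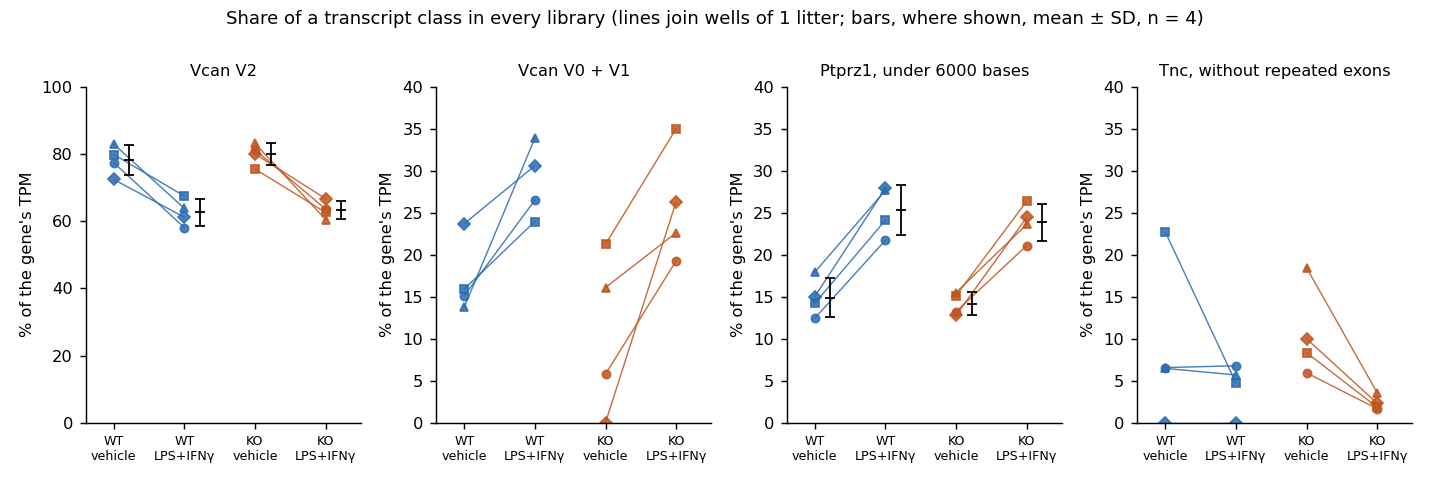
Share of a gene's TPM (vertical axis, percent) held by a transcript class in every library, with lines joining the wells of a litter and bars for the mean ± SD of 4 litters where no library was listed at 0. The V2 share of Vcan fell and the shares of V0 with V1 and of the short Ptprz1 transcripts rose along every line.

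The enzymes that build chondroitin sulfate chains were mixed. Of 25 tested, 8 rose and 5 fell in WT, and 7 rose and 7 fell in KO. Their median log2 fold change was 0.21 in WT and 0.08 in KO, beside -0.02 and -0.03 for all genes. Chst15, which adds the second sulfate of chondroitin sulfate E, rose by 1.39 ± 0.16 in WT and 1.13 ± 0.16 in KO. The polymerizing factor Chpf2 (1.22 ± 0.06 and 1.24 ± 0.06) and the xylose kinase Fam20b (1.06 ± 0.06 and 0.92 ± 0.06) rose as well. Papss2, a synthase of the sulfate donor, fell by -2.84 ± 0.22 and -1.86 ± 0.24, and the initiating enzymes Xylt1 (-0.51 ± 0.10 and -0.66 ± 0.10) and Csgalnact1 (-0.27 ± 0.09 and -0.75 ± 0.09) fell too. All edgeR adjusted p of these 6 genes lay between 6.45e-08 and 0.0276.

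Genes of hyaluronan, the polymer that lecticans bind, were tested for 10 symbols, of which 3 rose and 2 fell in each genotype. The list's median log2 fold change was -0.06 in WT and 0.01 in KO. The synthase Has2 rose by 2.52 ± 0.26 in WT and 3.34 ± 0.28 in KO, the hyaluronan-degrading Cemip by 1.89 ± 0.32 and 2.01 ± 0.31, and the receptor Cd44 by 1.43 ± 0.07 and 1.51 ± 0.07 (edgeR adjusted p between 6.08e-08 and 8.43e-04). The hyaluronan-binding Hmmr, also a mitotic gene, fell by -0.25 ± 0.09 and -0.49 ± 0.09 (adjusted p = 0.0463 and 0.00127).

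Of 13 proteases and inhibitors that act on lecticans, 4 rose and 6 fell in WT and 4 rose and 4 fell in KO. The list's median log2 fold change was -0.34 in WT and -0.06 in KO. The inhibitor Timp1 (1.99 ± 0.34 in WT and 2.16 ± 0.34 in KO), the versican-cleaving Adamts1 (0.78 ± 0.24 and 1.45 ± 0.24) and the membrane protease Mmp14 (0.52 ± 0.05 and 0.60 ± 0.05) rose. The aggrecanase Adamts5 (-1.31 ± 0.30 and -2.24 ± 0.31, against -1.44 and -1.83 by limma on the deposited table), Adamts9 (-1.34 ± 0.15 and -0.46 ± 0.15) and Mmp2 (-1.27 ± 0.15 and -0.55 ± 0.14) fell. Their edgeR adjusted p lay between 3.31e-06 and 0.0262.

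Of 14 other matrix partners, 2 rose and 5 fell in WT and 2 rose and 6 fell in KO (medians -0.24 and -0.62). Beside Cd44, the link protein Hapln4 rose by 0.94 ± 0.28 and 0.87 ± 0.26, opposite to Hapln1. The basement membrane protein Nid1 (-1.28 ± 0.07 and -1.10 ± 0.07), biglycan, Bgn (-1.17 ± 0.22 and -1.34 ± 0.22), and testican-2, Spock2 (-0.78 ± 0.06 and -0.96 ± 0.06), fell, at edgeR adjusted p of 0.0196 or lower for all of them. Of 9 lysosomal enzymes of glycosaminoglycan breakdown, 2 rose and 3 fell in WT and 3 rose and 3 fell in KO (medians -0.01 and 0.01), with Galns rising by 0.42 ± 0.09 and 0.46 ± 0.09. Ids fell by -0.43 ± 0.06 and -0.47 ± 0.06 and Arsb by -0.27 ± 0.06 and -0.34 ± 0.06 (edgeR adjusted p between 6.37e-05 and 0.00312 for these 3 genes).

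All 21 receptors and ligands of these proteins were tested, of which 8 rose and 7 fell in WT and 8 rose and 9 fell in KO (medians -0.02 and -0.11). Il34, a cytokine that binds Ptprz1, went from 1.08 ± 0.42 to 4.04 ± 0.33 log2 CPM in WT and from 2.00 ± 0.44 to 5.12 ± 0.59 in KO (SD, n = 4). Limma on these deposited values gave increases of 2.97 ± 0.20 and 3.12 ± 0.20 (adjusted p = 2.39e-07 and 1.36e-07), while edgeR on the paired transcripts gave 4.31 and 5.00. The integrin subunits Itgb3 (2.09 ± 0.29 and 1.36 ± 0.30) and Itga9 (1.45 ± 0.14 and 1.87 ± 0.14), the second of which binds Tnc, rose, and Itga8, whose integrin also binds Tnc, fell by -1.40 ± 0.21 and -1.45 ± 0.21. The adhesion protein Nfasc fell by -0.98 ± 0.11 and -0.92 ± 0.11. The phosphatase Ptprd went from 6.01 ± 0.13 to 5.35 ± 0.12 log2 CPM in WT and from 5.83 ± 0.09 to 5.38 ± 0.21 in KO, decreases of -0.66 ± 0.09 and -0.45 ± 0.09 by limma (adjusted p = 6.48e-05 and 9.88e-04). EdgeR on the paired transcripts gave -2.64 ± 0.90 and -2.66 ± 0.95 (adjusted p = 0.0359 and 0.0376), and the cause of the gap between the tools for Il34 and Ptprd was not tested.

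**Figure D5:**
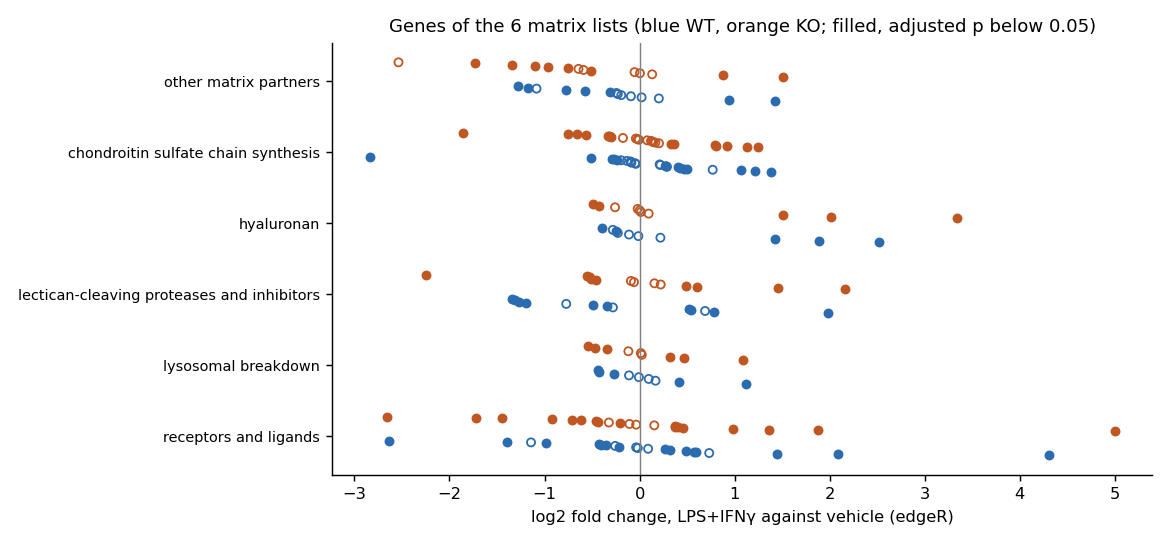
Log2 fold change of LPS + IFNγ against vehicle (horizontal axis, edgeR) of the tested genes of 6 lists around the members, with WT in blue and KO in orange, 1 point per gene, and filled points at an adjusted p below 0.05. Each list holds genes on both sides of 0, with Has2 at 2.52 and 3.34. The edgeR values of Il34 (4.31 and 5.00) and Ptprd (-2.64 and -2.66) plotted here are larger in size than those from the deposited table (2.97 and 3.12, and -0.66 and -0.45).

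The genes whose 8 litter responses were most like a member's were found by the root mean square (RMS) difference in log2 units, among 11973 genes. Nearest to Tnc were Lpin3, Pim1 and Rbm43 (RMS 0.26, 0.40 and 0.41). Nearest to Tnr were Pitpnc1, Nrep and Adamts7 (0.12, 0.16 and 0.18), and nearest to Bcan were Soga1, Slc44a1 and Ptn (0.05, 0.06 and 0.06), the last a ligand of Ptprz1. Genes near Vcan were Thbs1 and Sytl2 (0.16 and 0.20), and genes near Ncan were Ppp1r14b and Asph (0.05 and 0.09). The genes nearest to Cspg5 were Scarb1, Gcat and the mevalonate kinase Mvk (0.17, 0.18 and 0.19), and those nearest to Ptprz1 were Uxs1, which makes the UDP-xylose that starts glycosaminoglycan chains, Slc25a11 and Tmx2 (0.08, 0.09 and 0.09).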

How the data were processed

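RNA of 16 libraries was captured by poly-A tails and sequenced without strand information. The authors quantified transcripts with Salmon 1.7.0 against the GRCm39 transcriptome and deposited expected counts, TPM and transcript lengths per library. The authors also deposited a CPM signal on TMM-adjusted library sizes and its log2 values, from limma-voom 3.58.1. Here the 129698 transcripts were paired with symbols by RefSeq accession (106440 paired, 96.7% to 97.3% of reads), and expected counts were summed per gene and rounded. For Tnr, Bcan and Vcan, under 95% of the deposited signal was covered in at least 1 library, so limma values are printed beside those of edgeR, and likewise for Il34, Ptprd and Adamts5, the named list genes for which the tools differed most, picked after their values were seen.

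Tests were run in R 4.3.3 with the quasi-likelihood pipeline of edgeR 4.0.16. Library sizes were scaled by TMM, gene lengths entered as offsets, low genes were dropped by filterByExpr (minimum count 10), and p-values were adjusted by Benjamini-Hochberg with a limit of 0.05. Responses and the interaction had litter as block, which the design text ties to wells of the same mice. Libraries of a litter had r between 0.18 and 0.54 across genes, on log2 CPM centred by group. KO was set against WT with 4 group terms and no litter term, so the 2 wells of a litter counted as independent. SE is that of the log2 fold change. In the blocked fits the standard errors hold the spread of responses between litters, by an estimate that WT and KO share. In the fit of the 4 groups they hold the spread of levels between litters, shared by the groups. Vcan thus had an SE of 0.18 in both genotypes, with litter responses at an SD of 0.25 in WT and 0.61 in KO. Ncan had 0.09 in both, with an SD of 0.07 and 0.28. The reads per gene set the counting precision. The fits were tested on simulated data. Alternatives used DESeq2 1.42.0, limma 3.58.1, another normalization, no offsets, no filter, a threshold of 0.01, other blocks and leaving out litters. Fits without KO litters 2 and 4 together, fits of 8 libraries and the tests on transcript shares were chosen after seeing the data. Tables were made in Python 3.11.15 (pandas 2.3.3, numpy 2.4.6) and plots with matplotlib 3.10.9.

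The members and gene lists were chosen with earlier results of these data known. All 9 members are named, and from each list up to 3 genes per direction with the largest mean change among those called the same way in both genotypes at a mean of at least 1 log2 CPM. Likeness was measured to genes of at least 1 log2 CPM without a provisional symbol. A few genes that these rules select are not reported here. Positions of windows are on GRCm38.p6, and promoter sequences are from RefSeq.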

Additional observations from a re-analysis of the deposited data

Results flagged for a closer look

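Bcan was the gene with libraries far from the rest of their group, by Dixon's test on groups of 4 over 74 groups of levels, responses and transcript shares. In WT LPS + IFNγ, litter 4 was at 9.46 log2 CPM and the other 3 litters lay within 9.17 to 9.19. In KO LPS + IFNγ, litter 4 was at 9.08 and the other 3 lay within 9.27 to 9.30. Chance gives such a value in about 1 in 20 groups, and both Bcan responses were called without either litter.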

How the results depend on the processing

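The number of members called in the WT response was 6 with each litter left out in turn, and 6 to 8 in the KO response. For the interaction it was 0 to 4 without a litter in turn and 1 with DESeq2, against 0. For KO against WT in vehicle it was 0 to 2 without a litter in turn and 1 with DESeq2, against 0. For KO against WT with LPS + IFNγ it was 0 to 4 without a litter in turn, 2 with the replicate block, 0 on the 8 libraries of the condition, 0 without both KO litters 2 and 4 and 0 at an adjusted p below 0.01, against 1. By the paper, WT and KO pups were born on the same day. Whether same-numbered litters of the 2 genotypes share a culture day is not stated. The correlation of same-numbered libraries was between -0.20 and 0.33, with 0.33 and 0.26 for number 3. The replicate block added Tnr (-1.25, edgeR adjusted p = 0.0380). Without the litter block, 4 members were called in WT and 7 in KO. Genes called of all 16066 with LPS + IFNγ between genotypes numbered 808, and 1 to 3333 without a litter in turn, 2502 with DESeq2, 1471 with limma, 2206 with the block and 0 on the 8 libraries. In the interaction they numbered 0, and 310 with DESeq2 and 317 without KO litter 3. In vehicle they numbered 0, and 781 with DESeq2 and up to 1310 without a litter. Of 692 log2 fold changes of members under alternatives, 11 reversed, all uncalled. Vcan in WT was 0.033 without offsets and -0.14 to 0.038 without a litter in turn. Acan ranged from -0.78 to 0.21 in the KO response without a litter in turn (-1.23 without both KO litters 2 and 4) and from -0.023 to 0.62 between genotypes with LPS + IFNγ, and Bcan from -0.059 to 0.050 there. Without both KO litters 2 and 4, Tnr and Hapln1 were 0.036 and 0.041 in vehicle, and Bcan, Ncan and Acan were 0.027, 0.042 and -0.39 with LPS + IFNγ. In order by CPM in place of TPM, 5 to 7 of the 9 members kept their place. Shares of reads in place of TPM left each transcript test on its side of the threshold. Few reads limit Acan and Hapln1.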
